A study of Mus musculus with 12 samples.

Results

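The genes described are 10 members of the mammalian circadian clock, namely Arntl, Clock, Npas2, Per1, Per2, Per3, Cry1, Nr1d1, Nr1d2 and Dbp. They were chosen by name from 54839 features in a table of RNA-seq counts, and all 10 were found and passed the filter on low counts. The table covers 12 libraries of sorted mouse hepatocytes in 4 groups of 3. All mice were male p16-Tom animals on a C57BL/6 background, heterozygous for p16-CreERT2 and for the R26-CAG-LSL-tdTomato-WPRE reporter, and all received tamoxifen at 80 mg/kg. In these animals a tamoxifen-dependent Cre recombinase is expressed from the p16Ink4a gene and switches on tdTomato permanently, so that Tom+ cells are those that expressed p16Ink4a around the time of tamoxifen and their descendants. Mice were given either corn oil or CCl4 over 4 weeks. CCl4, a solvent that injures the hepatocytes around the central vein, was diluted in corn oil and injected every 3 days at 1 mL/kg per dose. Tom+ and Tom- hepatocytes were then separated by flow cytometry, which gave the groups Tom- oil, Tom+ oil, Tom- CCl4 and Tom+ CCl4. The mice lived under a regular cycle of light and dark. Their age and the hour of collection are not given in the sources used here.

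The clock is a feedback loop of transcription that runs in nearly every cell and follows the day. BMAL1, the product of Arntl, pairs with CLOCK or NPAS2 and activates genes that carry E-boxes in their control regions, among them the Per and Cry genes, Nr1d1, Nr1d2 and Dbp. PER and CRY proteins return to the nucleus and inhibit the activators, while REV-ERB alpha and beta, the products of Nr1d1 and Nr1d2, repress Arntl and Npas2 through ROR elements. In liver the loop drives daily rhythms of lipid, bile acid and drug metabolism, and the transcripts of Dbp, Nr1d1 and the Per genes change over the day by a larger factor than that of Clock. A library is therefore a snapshot whose clock transcripts depend on the hour at which the liver was taken, and neither the groups nor the replicate numbers are tied to an hour in the labels. Hour and treatment cannot be told apart here.

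Total counts per library ranged from 37568584 to 75331424. The tdTomato reporter was at 1343, 1316 and 1369 CPM (counts scaled to the library total, normalised by the TMM method) in the Tom+ CCl4 libraries and at 123, 263 and 120 CPM in the Tom- CCl4 libraries. In oil it was at 1794, 157 and 143 CPM in the libraries labelled Tom- and at 1546, 135 and 1225 CPM in those labelled Tom+. The reporter thus went against the label of replicate 1 of Tom- oil and of replicate 2 of Tom+ oil, and the labels were kept as deposited. Both oil libraries of number 1 were high in the reporter and both of number 2 were low. Only in number 3 were the oil fractions far apart in it. The summed level of 8 hepatocyte markers was between 97810 and 142400 CPM in every library, against at most 298 CPM for 8 endothelial, 215 for 9 Kupffer cell, 105 for 8 stellate cell, 17.95 for 6 cholangiocyte and 4.85 for 7 lymphocyte markers, of which Nkg7 was at or under 3 counts throughout. The labels do not say whether same-numbered Tom+ and Tom- libraries share a mouse, nor that replicates are separate animals, so the p-values measure only the spread between these samples, which may be technical.

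Per unit of transcript length the members spanned a wide range. As TPM, which scales counts by transcript length and library total, averaged over the 12 libraries, Nr1d1 was at 20.4, Cry1 at 17.5, Nr1d2 at 13.2, Clock at 12.9, Per1 at 10.97 and Arntl at 9.86. Npas2 followed at 5.95, Per2 at 3.91, Per3 at 0.888 and Dbp at 0.762. The ranges over libraries of neighbours in this order overlapped except between Arntl (7.57 to 12.8 TPM) and Npas2 (3.27 to 7.48 TPM) and between Per2 (2.88 to 5.97 TPM) and Per3 (0.498 to 1.201 TPM). Dbp, a PAR bZIP activator of liver enzyme genes, was represented by only 14 to 84 reads per library, so its differences are imprecise. The spread of a member's own CPM over the 12 libraries ran from a ratio of highest to lowest of 1.29 for Clock and 1.43 for Cry1 to 4.601 for Nr1d1 and 4.87 for Dbp.

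**Figure D1:**
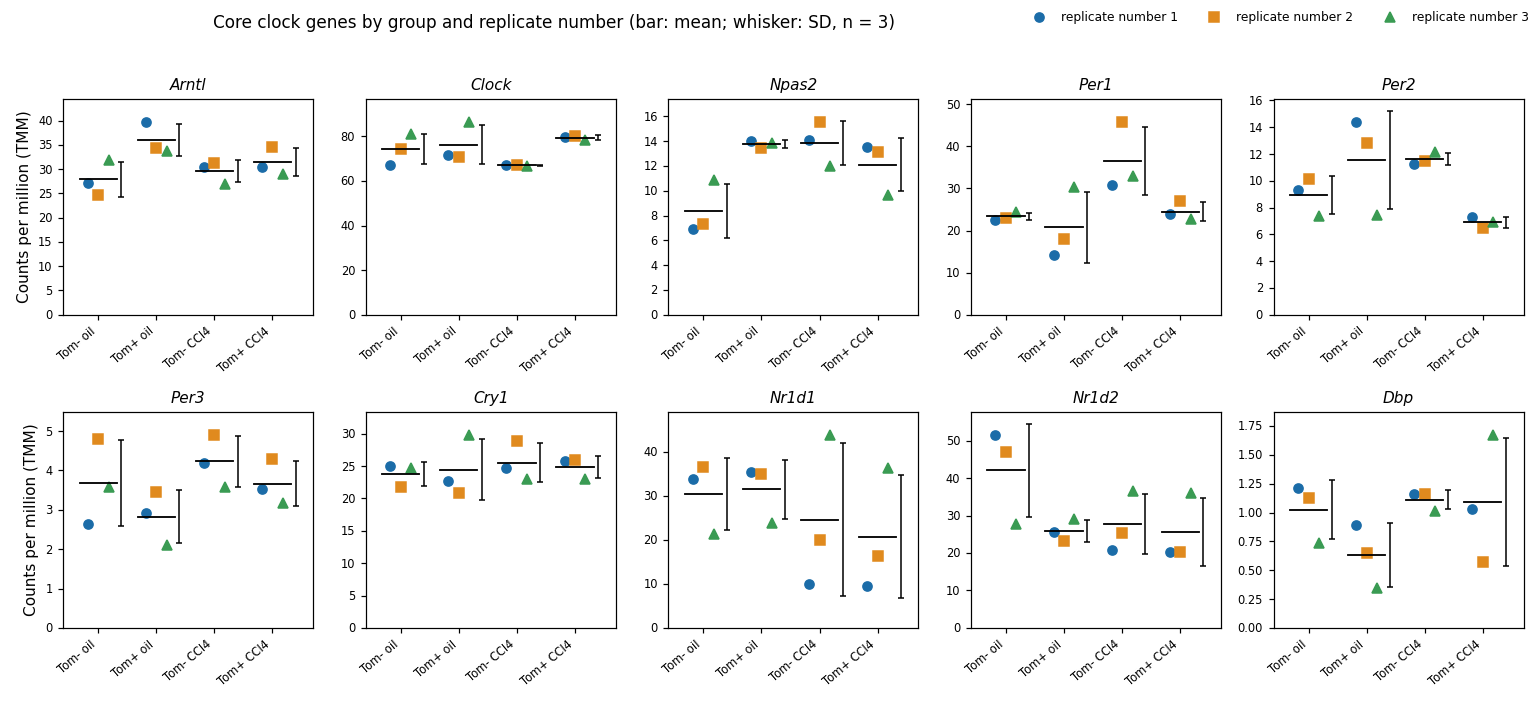
Level of each of the 10 clock genes in CPM (vertical axes, linear, from 0) in the 4 groups; each point is a library, its colour and shape give the replicate number, the bar is the mean and the whisker the SD of 3 libraries. Per2 is lower in all Tom+ CCl4 than in all Tom- CCl4 libraries, and Nr1d1 in CCl4 separates by replicate number, from 9.502 to 43.7 CPM.

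Promoter sequences of 9 of the 10 members, not Per2, were found in RefSeq (GRCm38.p6), at 13 start sites in all and each from 250 bases before to 50 after a start site. They were searched on both strands for the E-box CACGTG, its variant CACGTT, the D-box TTATGTAA, through which DBP and its repressor NFIL3 act, and the ROR elements TAGGTCA and TGGGTCA. Both E-box forms differ from each other in their last base and both ROR forms in their second, so no match to one is a match to the other. Windows around the matches are shown because the members are known to control each other through motifs of these kinds, with the motif in capitals and the strand of the gene. Whether these matches are bound or act was not tested.

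Per1, chr11:69098753-69098818, plus strand: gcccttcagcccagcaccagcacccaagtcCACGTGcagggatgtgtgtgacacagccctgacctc

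Cry1, chr10:85185079-85185163, minus strand: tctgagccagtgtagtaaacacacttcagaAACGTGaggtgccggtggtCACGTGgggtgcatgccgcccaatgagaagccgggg

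Nr1d1, chr11:98775390-98775415, minus strand: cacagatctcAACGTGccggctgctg

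Per3, chr4:151044786-151044900, minus strand: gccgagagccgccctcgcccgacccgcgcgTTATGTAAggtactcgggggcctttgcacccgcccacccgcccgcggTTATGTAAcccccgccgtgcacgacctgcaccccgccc

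Arntl, chr7:113207531-113207557, plus strand: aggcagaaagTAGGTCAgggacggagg

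The E-box began 166 bases before the start site in Per1 and 60 before it in Cry1, and its variant, here on the opposite strand as AACGTG, began 79 bases before the start site of Cry1 and 28 before that of Nr1d1. The D-box of Per3 occurred at 205 and at 158 bases before the start, and the ROR element of Arntl began 30 bases after it. Of all 32851 promoters in the table, 7.15% held CACGTG, 4.68% CACGTT, 0.938% TTATGTAA, 2.61% TAGGTCA and 3.98% TGGGTCA. The last was found in none of the members' windows, and the windows of Clock, Npas2, Nr1d2 and Dbp held none of the 5 motifs.

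CCl4 treatment was not accompanied by a called change of any member. Calls required edgeR's quasi-likelihood test over all genes to give an adjusted p (Benjamini-Hochberg) under 0.05, and a log2 fold change beyond 0.75. In Tom- hepatocytes 0 of 10 members were called for CCl4 against oil, beside 7.92% of the 17121 genes tested. In Tom+ hepatocytes 0 of 10 were called, beside 5.24% of the genes. After summing the Tom+ and Tom- counts of each number, which does not depend on the labels of the fractions, 0 of 10 were called, beside 4.78% of 17743 genes. DESeq2 also called 0 members in these 3 comparisons, beside 1662, 1142 and 1295 genes in all. An unadjusted p under 0.05 was found for 2 members in Tom-, 1 in Tom+ and 1 in the sums, beside 5388, 4169 and 4651 genes in all. By the adjusted p alone, without the fold threshold, 1 of 10 members passed in Tom- (Npas2, beside 16.1% of all genes) and 1 of 10 in Tom+ (Per2, beside 9.47%). The median log2 fold change of the members was 0.11 in Tom-, 0.00 in Tom+ and 0.02 in the sums, while the median of all genes was 0.00 in each. Fewer cells of a type and less RNA per cell cannot be told apart in these bulk libraries.

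**Figure D2:**
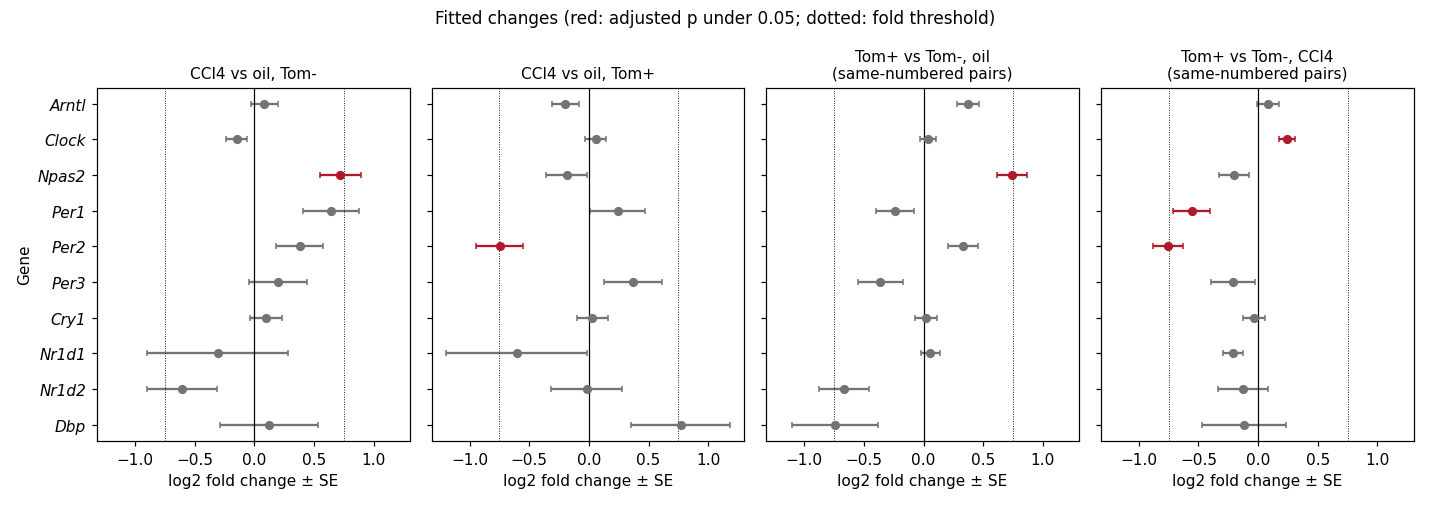
Log2 fold change with the standard error from the fit for the 10 clock genes (rows) in 4 comparisons (panels), with the Tom+ against Tom- comparisons fitted within same-numbered pairs. Red points have an adjusted p under 0.05 and dotted lines mark the fold threshold of 0.75; Per2 in CCl4 is the only point both red and past it.

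Between Tom+ and Tom- hepatocytes of CCl4 mice, 1 of 10 members was called (Per2, lower in Tom+), beside 1.96% of all genes. Deviations from group means correlated between same-numbered libraries of a treatment, at 0.37 to 0.57 in oil and 0.49 to 0.69 in CCl4. By levels over 9654 genes, the nearest library of the treatment was the same-numbered one only for replicate 3 of both oil groups and of Tom- CCl4. A fit that compares same-numbered libraries within pairs called the same member, beside 3.98% of the genes. By the adjusted p alone this paired fit passed 3 of 10 members (Per2, Per1 and Clock), beside 17.7% of the genes. Between the oil libraries labelled Tom+ and Tom-, 0 of 10 members were called, beside 0.0% of the genes. DESeq2 called 0 members there and 17 genes in all, and an unadjusted p under 0.05 was found for 3 members and for 1198 genes. The paired fit also called 0 of 10 in oil, beside 0.234% of the genes, and passed 1 (Npas2) by the adjusted p alone, beside 0.625%. The interaction, which tests whether the difference between fractions differed between CCl4 and oil, called 0 of 10 without pairs, beside 1.17% of the genes. Its unadjusted p was under 0.05 for 2 members and for 3178 genes in all. The interaction called 2 of 10 with pairs (Per2 and Npas2), beside 5.48%, and 2 with DESeq2 without pairs, beside 583 genes in all. These comparisons share samples with one another.

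Among the activators, Arntl (chr7:113207465-113314126 on mm10) varied by a ratio of 1.603 between its highest and lowest library. Its level was 27.2, 24.8 and 31.8 CPM in Tom- oil and 39.7, 34.4 and 33.7 CPM in Tom+ oil. In CCl4 it was 30.5, 31.3 and 27.0 CPM in Tom- and 30.5, 34.6 and 29.1 CPM in Tom+. By label the 2 oil groups did not overlap, and every library labelled Tom+ oil was higher than every library labelled Tom- oil. The reporter went against the labels of replicate 1 of Tom- oil and replicate 2 of Tom+ oil, at 27.2 and 34.4 CPM of Arntl. By oil pair, Tom+ minus Tom- was 0.55, 0.47 and 0.08 on the log2 scale in numbers 1, 2 and 3. Only in number 3 were these fractions far apart in the reporter. The log2 difference between the oil fractions was 0.37 ± 0.09 (SE from the fit of all 12 libraries, n = 3 pairs). It did not pass the adjusted test (adjusted p = 0.086 in edgeR's quasi-likelihood test within pairs, 0.53 without pairs). Without the 2 oil libraries whose reporter went against the label it was 0.36 ± 0.15 without pairs (adjusted p = 0.72). The 2 CCl4 groups overlapped, with a log2 difference of 0.08 ± 0.09.

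Clock (chr5:76209868-76304792), the histone acetyltransferase that partners BMAL1, varied least of the 10 members. It was at 67.0, 67.1 and 66.8 CPM in Tom- CCl4 and at 79.6, 80.2 and 78.1 CPM in Tom+ CCl4. The CCl4 fractions did not overlap, and the Tom+ library was higher in 3 of 3 pairs by 0.24 ± 0.06 on the log2 scale (adjusted p = 0.020 in edgeR's quasi-likelihood test within pairs, 0.13 without pairs), which is under the fold threshold. In oil Clock was at 67.3, 74.4 and 80.9 CPM in Tom- and at 71.7, 70.8 and 86.4 CPM in Tom+, and the groups overlapped.

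Npas2 (chr1:39193731-39363236), which can take the place of CLOCK, had its lowest mean in the libraries labelled Tom- oil. It was at 6.94, 7.34 and 10.8 CPM there, at 14.04, 13.4 and 13.9 CPM in Tom+ oil, at 14.1, 15.5 and 11.96 CPM in Tom- CCl4 and at 13.5, 13.1 and 9.69 CPM in Tom+ CCl4. The Tom- oil libraries lay below every library of the Tom+ oil and Tom- CCl4 groups. CCl4 against oil in Tom- gave a log2 fold change of 0.72 ± 0.18 (adjusted p = 0.014 in edgeR's quasi-likelihood test), just under the fold threshold, and 0.61 ± 0.20 (adjusted p = 0.080) without the 2 oil libraries whose reporter went against the label. Leaving out replicate 3 of Tom- oil (0.95, adjusted p = 0.0031) or of Tom- CCl4 (0.82, adjusted p = 0.019) took it past the fold threshold. In oil the log2 differences by pair were 1.01, 0.87 and 0.35 in numbers 1, 2 and 3, and only number 3 had fractions far apart in the reporter. The library labelled Tom+ was higher in 3 of 3 oil pairs, by 0.74 ± 0.13 within pairs (adjusted p = 0.022 in edgeR's quasi-likelihood test). In CCl4 the Tom+ library was lower in 3 of 3 pairs, with a log2 difference of -0.20 ± 0.13 (adjusted p = 0.31). The difference between these, the interaction, was -0.94 ± 0.18 (adjusted p = 0.0052 within pairs, 0.077 without). Without pairs the oil difference was 0.72 ± 0.17 (adjusted p = 0.45), without the 2 oil libraries named above 0.60 (adjusted p = 0.65) and without replicate 3 of Tom- oil 0.95 (adjusted p = 0.041). The interaction without pairs was -0.81 (adjusted p = 0.21) and -1.14 (adjusted p = 0.024) on leaving out the same libraries.

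Of the inhibitors, Per2 (chr1:91415982-91459324), a negative regulator that also responds to glucocorticoids and temperature, was the member called between the CCl4 fractions. It was at 11.2, 11.5 and 12.2 CPM in Tom- CCl4 and at 7.30, 6.44 and 6.93 CPM in Tom+ CCl4. All 3 Tom+ libraries lay below all 3 Tom- libraries, with means of 11.6 ± 0.474 and 6.89 ± 0.431 CPM (SD, n = 3). The log2 fold change was -0.76 ± 0.20 without pairs (adjusted p = 0.042 in edgeR's quasi-likelihood test) and -0.76 ± 0.13 within pairs (adjusted p = 0.0016). Without pairs the call lay near both thresholds and was lost when any 1 of the 6 CCl4 libraries (adjusted p from 0.078 to 0.15) or replicate 1 or 2 of Tom- oil (0.056 and 0.053) was left out, and without the 2 oil libraries whose reporter went against the label (-0.77, adjusted p = 0.061). Fitted on the 6 CCl4 libraries alone, which was decided after the data were seen, the adjusted p was 0.017.

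The same CCl4 fractions also differed in zonation and endothelial markers. The summed level of 8 central vein markers was between 1551 and 2644 CPM in Tom- CCl4 and between 3569 and 4945 CPM in Tom+ CCl4, and that of 8 portal markers between 7492 and 9399 and between 4564 and 5844 CPM. The 8 endothelial markers summed to between 272 and 298 CPM in Tom- CCl4 and to between 143 and 192 CPM in Tom+ CCl4. Their part in the difference of Per2, and in those of Clock, Per1 and Wee1 between the same fractions, was not tested.

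In oil, Per2 was at 9.34, 10.1 and 7.38 CPM in the libraries labelled Tom- and at 14.4, 12.8 and 7.42 CPM in those labelled Tom+. Replicate 3 was lowest in each fraction, and the groups overlapped. The interaction of Per2 was -1.09 ± 0.18 within pairs (adjusted p = 0.0024 in edgeR's quasi-likelihood test) and -1.13 ± 0.28 without (adjusted p = 0.062). The difference between the oil fractions itself did not pass (0.33 ± 0.13 within pairs, adjusted p = 0.25). By pair it was 0.62, 0.34 and 0.0083 in oil numbers 1, 2 and 3, and only number 3 had fractions far apart in the reporter. CCl4 against oil gave -0.75 ± 0.20 in Tom+ (adjusted p = 0.031), just under the fold threshold, and 0.38 ± 0.20 in Tom- (adjusted p = 0.21). Leaving out replicate 3 of Tom+ oil gave -0.98 in Tom+ (adjusted p = 0.0014) and an interaction of -1.36 without pairs (adjusted p = 0.0066), and without the 2 oil libraries named above the values were -0.66 (adjusted p = 0.14) and -1.08 (adjusted p = 0.18).

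Per1 (chr11:69095217-69109960), an inhibitor that is also induced rapidly by stress hormones, was at 30.8, 45.8 and 33.0 CPM in Tom- CCl4 and at 23.9, 26.9 and 22.7 CPM in Tom+ CCl4. These fractions did not overlap, and Tom+ was lower in 3 of 3 pairs, with a log2 difference of -0.56 ± 0.16 (adjusted p = 0.036 in edgeR's quasi-likelihood test within pairs, 0.17 without pairs). In oil it was at 22.6, 23.1 and 24.3 CPM in Tom- and at 14.2, 17.9 and 30.3 CPM in Tom+. The Tom+ oil libraries fell on either side of the narrow Tom- oil range. CCl4 against oil in Tom- was 0.65 ± 0.23 (adjusted p = 0.083).

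Per3 (chr4:151003652-151044665) and Cry1 (chr10:85131700-85185064), the remaining inhibitors, passed in none of these comparisons. Per3 ranged from 2.11 to 4.89 CPM over the 12 libraries, with group means of 3.67 ± 1.09 in Tom- oil, 2.83 ± 0.679 in Tom+ oil, 4.23 ± 0.652 in Tom- CCl4 and 3.66 ± 0.578 CPM in Tom+ CCl4 (SD, n = 3). Cry1 ranged from 20.8 to 29.8 CPM, with group means of 23.8 ± 1.85, 24.4 ± 4.73, 25.5 ± 3.01 and 24.9 ± 1.64 CPM in the same order. The fitted log2 differences of Cry1 without pairs lay between -0.07 and 0.10 in the edgeR fits of all 12 libraries with TMM. Without the 2 oil libraries whose reporter went against the label they lay between -0.21 (interaction) and 0.16 (Tom+ against Tom- in oil), and none passed.

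**Figure D3:**
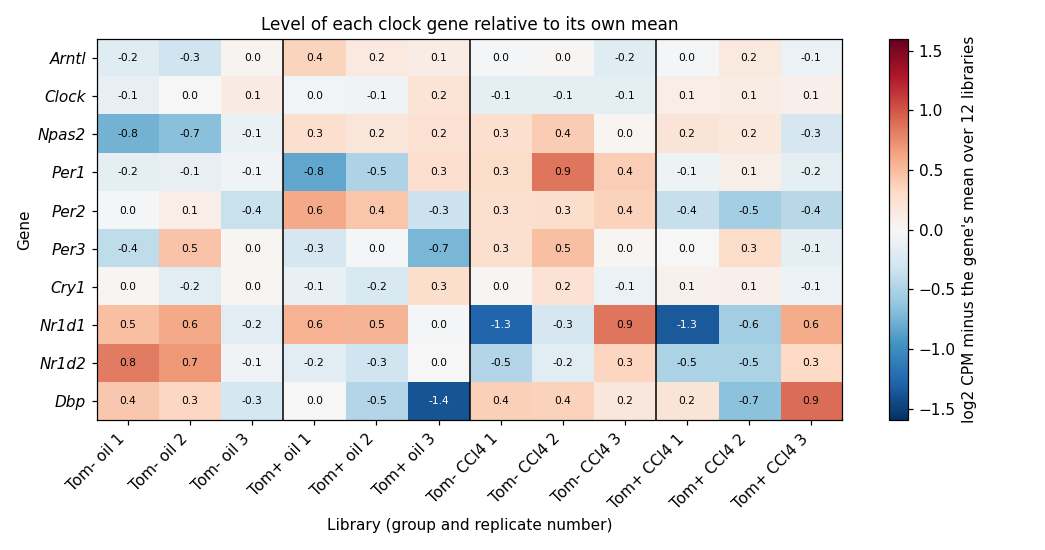
Log2 CPM of each clock gene (rows) minus its mean over the 12 libraries (columns, by group and replicate number), in colour and as printed values. Nr1d1 runs from deep blue to red within each CCl4 group, and Npas2 and Nr1d2 have opposite signs in replicates 1 and 2 of Tom- oil.

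The repressors Nr1d1 and Nr1d2 came next, and Nr1d1 was the member that differed among replicate numbers in both treatments. Nr1d1 (chr11:98767932-98775333) was at 9.99, 19.96 and 43.7 CPM in replicates 1, 2 and 3 of Tom- CCl4 and at 9.502, 16.4 and 36.3 CPM in those of Tom+ CCl4. Both fractions of one number were close to each other, differing by a mean of 0.21 on the log2 scale, while the means of the pairs spanned 2.03 on that scale, a ratio of 4.11. The test of differences among the 3 numbers in CCl4, fitted with fraction and number as terms, gave an adjusted p of 2.9e-07 for Nr1d1 in edgeR's quasi-likelihood test.

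In oil Nr1d1 was at 33.7, 36.5 and 21.2 CPM in the libraries labelled Tom- and at 35.4, 35.0 and 23.8 CPM in those labelled Tom+. Replicate 3 was the lowest of each fraction here, whereas it was the highest in CCl4. The means of the oil pairs differed by a ratio of at most 1.59, with an adjusted p of 0.0028 among numbers in edgeR's quasi-likelihood test. The group means, 30.5 ± 8.15 CPM in Tom- oil, 31.4 ± 6.62 in Tom+ oil, 24.6 ± 17.3 in Tom- CCl4 and 20.7 ± 13.9 CPM in Tom+ CCl4 (SD, n = 3), lay within these spreads. CCl4 against oil for Nr1d1 was -0.31 ± 0.59 in Tom- and -0.61 ± 0.59 in Tom+ (adjusted p = 0.77 and 0.59 in edgeR's quasi-likelihood test).

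Nr1d2 (chr14:18204054-18239127) was at 20.9, 25.5 and 36.5 CPM in Tom- CCl4 and at 20.4, 20.4 and 35.99 CPM in Tom+ CCl4. Replicate 3 was again the highest of each fraction. Its adjusted p among numbers in CCl4 was 0.19 in edgeR's quasi-likelihood test over all libraries and 2.7e-04 in the CCl4 libraries alone. In oil it was at 51.4, 46.8 and 27.8 CPM in Tom- and at 25.6, 23.2 and 29.0 CPM in Tom+, so that replicates 1 and 2 of Tom- oil stood above all other libraries. The difference between the oil fractions was -0.66 ± 0.21 within pairs and did not pass (adjusted p = 0.23). By pair it was -1.01, -1.01 and 0.06 in oil numbers 1, 2 and 3, and only number 3 had fractions far apart in the reporter.

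Dbp (chr7:45705088-45710203) was at 1.21, 1.124 and 0.736 CPM in Tom- oil, at 0.896, 0.649 and 0.343 CPM in Tom+ oil, at 1.16, 1.16 and 1.01 CPM in Tom- CCl4 and at 1.03, 0.568 and 1.67 CPM in Tom+ CCl4. No comparison of Dbp passed, among numbers included, and the standard errors of its fold changes, up to 0.42 between 2 groups in the fit of all libraries, do not exclude a change of a factor past the fold threshold. Exons of Dbp overlap those of Sphk2 on the opposite strand over 539 bases (18.01% of its exon bases), those of Nr1d1 overlap Thra over 263 bases (8.55%) and those of Arntl overlap Gm45355 over 33 bases. Sphk2 was at a median of 35.6 CPM against 1.02 CPM for Dbp. The libraries were prepared with a strand-specific protocol, but whether the counting used strand is not given in the sources used here, so the part of these overlaps in the counts was not tested.

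Over all members, 1 of 10 (Nr1d1) differed among the numbers in CCl4, beside 6.69% of all genes, and 2 of 10 (Nr1d1 and Per2) in oil, beside 4.43%. In the CCl4 libraries alone 3 of 10 passed (Nr1d1, Nr1d2 and Per1), beside 12.3% of 16277 genes. Without the 2 oil libraries whose reporter went against the label 4 of 10 passed in oil (Nr1d1, Nr1d2, Per1 and Per2), beside 4.39% of 17525 genes. The adjusted p of Per2 among oil numbers was 0.046 and passed in 6 of 16 alternatives: it was lost on leaving out any 1 library other than replicates 1 and 3 of Tom- oil (from 0.065 to 0.34), while that of Nr1d1 passed in all 16 for oil and all 17 for CCl4.

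**Figure D4:**
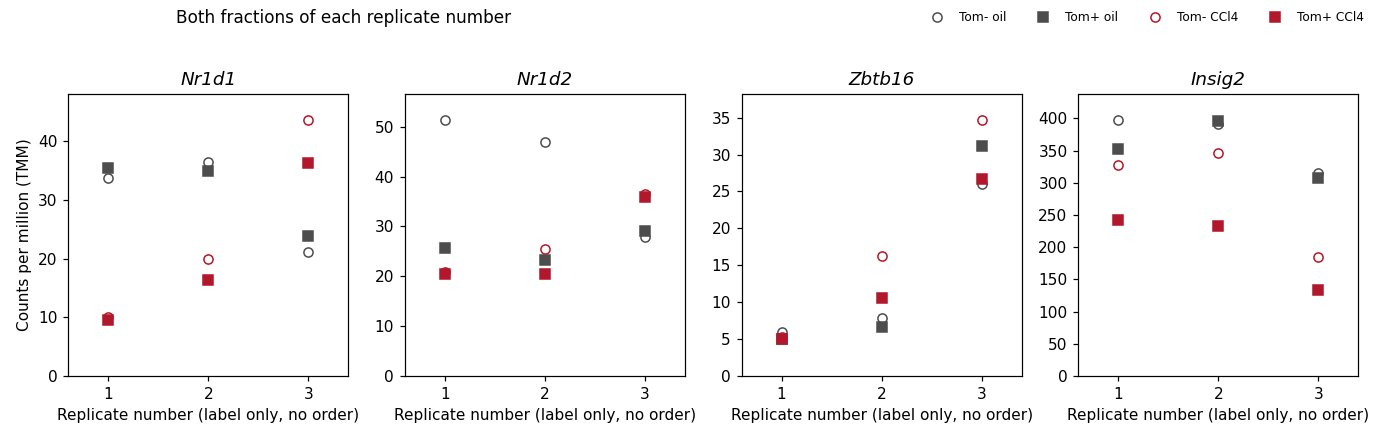
Level in CPM (vertical axes, linear, from 0) of Nr1d1, Nr1d2, the hormone-responsive gene Zbtb16 and the sterol regulator Insig2 against replicate number, which is a label without order. Grey is oil, red is CCl4, open circles are Tom- and filled squares Tom+; both CCl4 fractions of a number lie close together for Nr1d1 at 9.502 and 9.99 CPM in number 1, and Insig2 is lowest in number 3.

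Genes outside the loop varied by number as well. Their counts are read beside 6.69% of all genes in CCl4 and 4.43% in oil. In the list of 7 glucocorticoid-responsive genes, 2 passed among numbers in CCl4 (Fkbp5 and Zbtb16) and 5 in oil (Fkbp5, Mt1, Mt2, Tat and Zbtb16). Zbtb16, a zinc finger repressor, was at 5.23, 16.2 and 34.7 CPM in Tom- CCl4 and at 5.02, 10.6 and 26.7 CPM in Tom+ CCl4, the order of Nr1d1. In oil it was at 5.99, 7.91 and 26.0 CPM in Tom- and at 5.01, 6.64 and 31.2 CPM in Tom+, so that replicate 3 was highest where Nr1d1 was lowest. Of 10 immediate early genes, which are induced quickly by handling and stress, 5 passed in CCl4 (Atf3, Egr1, Fos, Jun and Junb) and 2 in oil (Egr1 and Jun). Of 8 temperature-responsive genes 0 passed in either. Their unadjusted p was under 0.05 for 2 in CCl4 and 1 in oil, beside 3475 and 3209 genes in all. In the CCl4 libraries alone 6 of 7, 7 of 10 and 5 of 8 genes of these lists passed, beside 12.3% of all genes, and without the 2 oil libraries whose reporter went against the label 5, 1 and 2 passed in oil, beside 4.39%. The 9 Kupffer cell markers summed to 157 and 215 CPM in number 3 of CCl4 against 71.7 to 127 CPM in numbers 1 and 2, and to 95.7 and 145 CPM in number 3 of oil against 17.7 to 35.2 CPM. The part of hormones, handling, hour of collection or cell mixture in the differences among numbers was not tested.

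The wider clock machinery was followed in 19 accessory genes (kinases, ubiquitin ligases and secondary transcription factors) and 20 liver genes under clock control. Of the accessory genes, 1 of 19 was called up for CCl4 in Tom- (Csnk1e) and 1 of 19 in Tom+ (Fbxl21), with none called down and medians of -0.01 and 0.05, beside 7.92% and 5.24% of all genes called in either direction. On the sums of pairs 1 of 19 was called (Fbxl21, 0.79 ± 0.16, adjusted p = 0.022 in edgeR's quasi-likelihood test), beside 4.78%, and that call was lost without oil number 1 or CCl4 number 2 (adjusted p = 0.089 and 0.078) or by its fold without CCl4 number 1 (0.74). Beside these changes, the 8 stellate cell markers summed to between 7.25 and 22.8 CPM in the oil libraries and to between 51.3 and 105 CPM in the CCl4 libraries. In Tom- the 9 Kupffer cell markers went from a mean of 45.7 to 135 CPM and the 8 endothelial markers from 134 to 285 CPM, and in Tom+ from 70.3 to 121 and from 159 to 167 CPM. The 8 central vein markers went from a mean of 3443 to 2180 CPM in Tom- and from 1610 to 4280 CPM in Tom+. The 8 portal markers went from 10660 to 8550 CPM in Tom- and from 11330 to 5370 CPM in Tom+. The part of these marker lists in the changes of the clock-related genes was not tested. Csnk1e, a kinase that marks PER proteins for degradation, was at 1.56, 1.67 and 2.31 CPM in Tom- oil and at 4.04, 3.79 and 6.02 CPM in Tom- CCl4 (log2 fold change 1.32 ± 0.34, adjusted p = 0.018 in edgeR's quasi-likelihood test). Fbxl21, an F-box protein that binds CRY, was at 2.53, 2.82 and 2.08 CPM in Tom+ oil and at 5.96, 5.68 and 5.59 CPM in Tom+ CCl4 (1.21 ± 0.19, adjusted p = 0.0021). In these comparisons the CCl4 libraries lay above all oil libraries, whereas Csnk1e in Tom+ and Fbxl21 in Tom- overlapped between treatments. Csnk1e lost its call without replicate 1 (1.21, adjusted p = 0.068) or 2 (1.25, adjusted p = 0.064) of Tom- oil or replicate 3 of Tom- CCl4 (1.08, adjusted p = 0.075). Between the fractions 0 accessory genes were called in either treatment, beside 1.96% of all genes in CCl4 and 0.0% in oil. Their unadjusted p was under 0.05 for 3 in CCl4 and 2 in oil, beside 3901 and 1198 genes in all. Among numbers in oil 1 of 19 passed (Nfil3), beside 4.43% of all genes.

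Of the clock-controlled genes, 1 of 20 was called up and 1 down for CCl4 in Tom-, and 4 up and 2 down in Tom+, with medians of -0.08 and 0.21, beside 7.92% and 5.24% of all genes called. Tsku, a secreted hepatokine, rose in both fractions, from 85.8, 130 and 119 CPM in Tom- oil to 192, 233 and 303 CPM in Tom- CCl4 (1.119 ± 0.23, adjusted p = 0.0081 in edgeR's quasi-likelihood test) and by 0.96 ± 0.23 in Tom+ (adjusted p = 0.022). Elovl3, a fatty acid elongase, fell in both: its raw counts were 134, 425 and 207 in Tom- oil and 2, 0 and 2 in Tom- CCl4 (adjusted p = 5.9e-05), and 42, 102 and 94 in Tom+ oil and 8, 4 and 6 in Tom+ CCl4 (adjusted p = 0.0012). No fold is given for Tom-, where the CCl4 counts are at the limit of detection. In Tom+ the electron donor of cytochromes P450, Por (0.94 ± 0.23), the ubiquitin hydrolase Usp2 (1.58 ± 0.41) and the cell cycle kinase Wee1 (1.46 ± 0.29) also rose. Ppp1r3c, a glycogen-targeting phosphatase subunit, fell there by 1.29 ± 0.28 on the log2 scale. Usp2 passed in 5 of 17 alternatives only, and it was lost without the 2 oil libraries whose reporter went against the label (1.33, adjusted p = 0.13), without any 1 Tom+ library other than replicate 3 of Tom+ oil (adjusted p from 0.053 to 0.14) and without replicate 2 or 3 of Tom- oil or any 1 Tom- CCl4 library (from 0.058 to 0.062). In Tom+, the calls of Por, Tsku and Ppp1r3c were each lost without replicate 1 of Tom+ oil (adjusted p = 0.090, 0.087 and 0.051) or replicate 3 of Tom+ CCl4 (0.098, 0.096 and 0.097), that of Por also without replicate 2 of Tom+ oil (0.055) or Tom+ CCl4 (0.063), and that of Tsku without replicate 3 of Tom+ oil (0.059). All 3 were also lost with no filter on low counts (0.063, 0.066 and 0.051). On the sums of same-numbered pairs 3 were called up (Cyp7a1, Tsku and Wee1) and 2 down (Elovl3 and Ppp1r3c), beside 4.78% of all genes called. Of the genes called on the sums only Elovl3 kept its call whichever pair was left out.

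Wee1 was also the 1 of 20 clock-controlled genes called between the CCl4 fractions, beside 1.96% of all genes. It was at 1.85, 1.19 and 2.11 CPM in Tom- and at 3.41, 4.69 and 6.03 CPM in Tom+ (1.45 ± 0.29, adjusted p = 0.015 in edgeR's quasi-likelihood test). It was higher in every Tom+ than in every Tom- library, at low levels throughout, and was lost without replicate 2 of Tom- CCl4 (1.25, adjusted p = 0.083) or of Tom+ CCl4 (1.45, adjusted p = 0.056). Of both lists, the interaction within pairs was called for Wee1 (1.64 ± 0.37), Fbxl21 (0.98 ± 0.26) and Elovl3, beside 5.48% of all genes. For Elovl3 it rests on Tom- CCl4 counts of 2, 0 and 2, at the limit of detection. Without pairs 0 genes of both lists were called for the interaction, beside 1.17% of all genes. The unadjusted p was under 0.05 for 3 of each list, beside 3178 genes in all. Among numbers 5 of 20 passed in CCl4 (Insig2, Noct, Por, Ppp1r3c and Tsku), beside 6.69% of all genes, and 6 of 20 in oil (Cdkn1a, Nampt, Por, Ppp1r3c, Rgs16 and Tfrc), beside 4.43%. In the CCl4 libraries alone 13 of 20 passed, beside 12.3%, and without the 2 oil libraries whose reporter went against the label 12 of 20 passed in oil, beside 4.39%. Insig2, which holds back sterol synthesis, was at 327, 346 and 185 CPM in Tom- CCl4 and at 243, 233 and 133 CPM in Tom+ CCl4, lowest where Nr1d1 was highest. In oil the means of its pairs were 376, 394 and 311 CPM in numbers 1, 2 and 3, so there it was lowest where Nr1d1 was lowest too. Noct, a deadenylase-related gene, was at 52.6, 101.04 and 37.1 CPM in Tom- CCl4 and at 31.5, 58.0 and 23.8 CPM in Tom+ CCl4, highest in number 2 of each fraction. Rgs16, a regulator of G protein signalling, was at 21.0, 17.6 and 57.7 CPM in Tom- oil and at 10.03, 11.4 and 74.997 CPM in Tom+ oil, with number 3 apart.

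Across the 12 libraries the members' log2 CPM were related in pairs as follows, as a description over libraries that share groups, numbers and depth. The highest Pearson correlations were 0.71 between Arntl and Npas2, 0.71 between Nr1d1 and Nr1d2 and 0.66 between Per1 and Cry1. The lowest were -0.87 between Npas2 and Nr1d2, -0.78 between Clock and Per2 and -0.70 between Arntl and Nr1d2. Among 9654 other genes with a mean of at least 5 CPM, those most like Arntl were Pld1 (0.91), Klb (0.86), Ahctf1 (0.85), Ppard (0.85) and Prox1 (0.84), and those most opposite were Hdac5 (-0.84), Tspo (-0.84), Acaa1b (-0.83), Acadvl (-0.83) and Mepce (-0.83). For Dbp, with its few reads, the most like were Myg1 (0.86), Fbxw9 (0.84), Rpusd3 (0.82), Lcmt1 (0.82) and Gm44280 (0.82), and the most opposite Cdk5rap1 (-0.86), Wdr20 (-0.84), Dnajb14 (-0.81), Zfp385b (-0.80) and Gm10658 (-0.80). None of these 20 is on the lists of accessory or clock-controlled genes. By the root mean square difference over the 10 members, the nearest library of the same treatment was the same-numbered one of the other fraction for replicates 1 and 3 of both CCl4 groups and for replicate 3 of Tom+ oil, and not for the others.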

How the data were processed

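Bulk polyA RNA-seq of 12 libraries was used, grouped by the treatment, fraction and number that the labels give. Per the submitters' processing notes, the authors used fastp (v0.23.2) for trimming, HISAT2 (v2.1.0) for alignment on mm10, and DESeq2 (v1.42.1). The counting program is not given in the sources used here. The values the authors deposited are unnormalized expected counts. In each library 30.4% to 32.9% of those above 0 were not whole, so they were rounded to whole numbers, whereas the design had assumed counts. Symbols were matched for 54723 of 54839 features, and all sample columns were used. The members and gene lists were chosen with earlier results of these data known. The fits used edgeR (v4.0.16) under R (v4.3.3): filterByExpr, TMM and the robust quasi-likelihood test in 1 fit of 12 libraries, with thresholds of 0.05 and 0.75. Another fit held number within treatment and fraction within treatment, and gave the paired comparisons and the tests among numbers. Log2 CPM used a prior count of 2, and TPM was computed from the counts and deposited lengths. Deviations from group means correlated at 0.37 to 0.57 (oil) and 0.49 to 0.69 (CCl4) between same-numbered libraries of the labels, over 9654 genes, so the numbers were taken to pair the fractions within a treatment. Named were all 10 members, list genes that passed in the fits of all 12 libraries, and for Arntl and Dbp the 5 most and 5 least correlated genes. Alternatives were DESeq2 (v1.42.0), RLE normalization, no filter, the adjusted p alone, the replicate block and leaving out libraries. On simulated data 188 of 200 genes changed 4-fold were recovered between the CCl4 fractions (16781 genes), with 8 false calls. Among CCl4 numbers 184 of 200 were recovered (16776 genes), with 18 false calls. Smaller changes, and fractions compared in the presence of differences between pairs, were not simulated. The recovery of changes as small as those fitted for the members is therefore not known. The depth was 37568584 to 75331424 counts per library. Differences of the accessory list among CCl4 numbers are not reported here. Figures used Python and matplotlib.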

Additional observations from a re-analysis of the deposited data

Results flagged for a closer look

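For Npas2 and Per2 the difference between fractions was not the same in oil and in CCl4, by the interaction term fitted within same-numbered pairs with edgeR's quasi-likelihood test. The interaction was -0.942 for Npas2, with an adjusted p of 0.0052, and -1.087 for Per2, with an adjusted p of 0.0024. For Npas2 the library labelled Tom+ was higher in 3 of 3 oil pairs and lower in 3 of 3 CCl4 pairs, and the same counts held for Per2, although its oil pair of number 3 differed by only 0.0083 on the log2 scale. Within pairs the difference of Npas2 in CCl4 (-0.20, adjusted p = 0.31) and that of Per2 in oil (0.33, adjusted p = 0.25) did not pass by themselves. Without pairs the adjusted p was 0.077 and 0.062, and without the 2 oil libraries whose reporter went against the label it was 0.21 and 0.18. Without replicate 3 of Tom- oil for Npas2 and of Tom+ oil for Per2 it was 0.024 and 0.0066. The oil side of both differences rests on labels that the reporter went against in 2 of 6 libraries. Only oil number 3 had fractions far apart in the reporter (143 CPM in Tom- and 1225 in Tom+). There the log2 difference was 0.35 for Npas2 and 0.0083 for Per2. In numbers 1 and 2 it was 1.01 and 0.87 for Npas2 and 0.62 and 0.34 for Per2. The mean sum of 8 central vein markers was 3443 CPM in Tom- oil, 1610 in Tom+ oil, 2180 in Tom- CCl4 and 4280 in Tom+ CCl4. Its part in the interactions was not tested.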

How the results depend on the processing

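The number of members called for CCl4 against oil was 0 in each fraction, and by the adjusted p with no fold threshold it was 1 in Tom- and 1 in Tom+. Leaving out 1 library gave 0 to 1 in either fraction and 0 to 0 on the sums of pairs. Between the CCl4 fractions the number was 1, from 0 to 1 when leaving out 1 library, and 0 without the 2 oil libraries whose reporter went against the label. Between the oil fractions it was 0, and 0 to 1 when leaving out 1 library. For the interaction it was 0, and 1 with no filter on low counts, 2 with the replicate block, 2 with DESeq2 and 0 to 1 when leaving out 1 library. Among numbers in oil it was 2, from 1 to 4 when leaving out 1 library, and 4 without the 2 oil libraries named above. Among numbers in CCl4 it was 1, from 1 to 3 when leaving out 1 library, 3 without those oil libraries, and 3 in the CCl4 libraries alone, which was chosen after seeing the data. The cause of these changes was not tested, and Per2 in the CCl4 fractions lies close to both thresholds. Fold changes were followed over the alternatives for members with an unadjusted p under 0.05 and for list genes called in the main fit. None of these changed sign, which that choice itself favours. Smaller changes could: Cry1 for CCl4 against oil in Tom+ went from 0.03 to -0.07 without the 2 oil libraries named above. Across treatments same-numbered libraries correlated at only 0.021 to 0.31, so they share only a number there, and the replicate block left the count of members at 0 in each CCl4 against oil comparison. It moved the count over all genes from 1356 to 1694 in Tom-, from 897 to 1119 in Tom+ and from 848 to 1135 on the sums. Between fractions it moved the count from 336 to 682 in CCl4, from 0 to 40 in oil and from 201 to 938 for the interaction. With DESeq2 the count over all genes was 538 between the CCl4 fractions, 583 for the interaction, 1295 on the sums, 1193 among numbers in oil and 17 between the oil fractions. Depth limits Dbp, at 14 to 84 reads per library.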
